A study of Mus musculus with 7 samples.

Results

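The growth hormone axis of the liver was followed through 10 genes, picked by symbol from the 23347 genes of the count table: the receptor *Ghr*, its kinase *Jak2*, the transcription factors *Stat5a* and *Stat5b*, the feedback inhibitors *Socs2* and *Cish*, the repressors *Bcl6* and *Cux2*, and the secreted products *Igf1* and *Igfals*. RNA-seq of whole liver compared 4 *B4galt1* flox/flox mice, whose *B4galt1* gene is flanked by recombination sites and which the sample labels call WT, with 3 mice labelled B4galt1-HKO and written here as labelled hep-/-, in which Cre under the albumin promoter is meant to remove the gene from hepatocytes. All were male, on a C57BL/6 background, with flox/flox littermates as controls, and were 6 to 8 weeks old when feeding began. All ate CDAHFD, a choline-deficient, amino acid-defined, high-fat diet that causes steatohepatitis, for 15 weeks. Each mouse gave 1 library. Livers from chow feeding were not analysed here. Food was freely available, and the hour of death, which bears on a pulsed hormone, is not given in the sources used here. Since whole liver was sequenced, fewer cells of a type and less RNA per cell cannot be told apart.

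Growth hormone leaves the pituitary in pulses. On hepatocytes it binds GHR, which activates JAK2, and JAK2 phosphorylates STAT5A and STAT5B so that they enter the nucleus and switch on *Igf1*, *Igfals*, *Socs2* and *Cish*. SOCS2 and CISH then damp the signal, IGF1 circulates in a complex with the acid-labile subunit encoded by *Igfals*, and the pulse pattern, which differs between the sexes, sets the sex-biased gene expression of the liver with help from BCL6, which is enriched in male liver, and CUX2, which is enriched in female liver.

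The targeted gene, *B4galt1*, did not separate the groups. It was measured at 48.7, 52.95, 49.24 and 51.65 CPM, counts scaled to the TMM-adjusted library size, in flox/flox replicates 1 to 4 and at 28.37, 23.86 and 53.71 CPM in replicates 1 to 3 labelled hep-/-, so replicate 3 lay above every flox/flox liver (log2 fold change -0.52, adjusted p = 0.181 by the quasi-likelihood test of edgeR, used throughout unless another tool is named). Without that replicate 3 *B4galt1* was lower, past the threshold (-0.96, adjusted p = 0.0139), and without replicate 2 labelled hep-/- the log2 fold change was -0.30. Counts over the whole gene cannot show whether an exon is missing, and groups are named here by label only. Total counts ranged from 37838654 to 39668509 in flox/flox livers and from 30608271 to 34586588 in livers labelled hep-/-. Mitochondrially encoded transcripts took 3.88% to 7.996% of the counts in the former and 14.4% to 22.6% in the latter, without overlap. With the 13 mitochondrially encoded genes left out the same 2 members were called (*Socs2* 1.28 and *Cux2* 2.04 on the log2 scale), and other parts of this difference in the results were not tested. Flox/flox replicate 3 stood apart in markers of other cells. The sum of 8 endothelial markers was 388.5 CPM there and 117.4 to 164.6 CPM in the other flox/flox livers, with *Lyve1* at 48.45 against 2.735 to 5.001 CPM, and the sum of 17 macrophage markers was 3123 against 1590 to 2152 CPM. Of 15179 genes tested, 15.8% passed the threshold, an adjusted p under 0.05 with an absolute log2 fold change over 0.58.

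STAT5 binds DNA at the letters TTCNNNGAA, which read the same on both strands and which BCL6 also recognises. Start-site windows of 300 bases, 250 before and 50 after each annotated start, were available from RefSeq for 9 of the 10 genes, all but *Socs2*. The letters occurred in 5 of their 16 windows, belonging to *Cish*, *Bcl6* and *Igfals*, against 8.30% of all 32851 windows. A match is a description of the sequence and not a measured binding site. The matches are shown because they place the letters that STAT5 reads beside the genes whose values follow. Capitals mark the matching letters within 30 bases, on the gene's own strand in GRCm38.p6.
*Cish* (chr9:107296654-107296683, plus strand, the first match beginning at the annotated start): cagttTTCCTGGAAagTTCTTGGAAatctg
*Igfals* (chr17:24877598-24877627, plus strand, before the first annotated start): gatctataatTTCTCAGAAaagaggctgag
*Igfals* (chr17:24878163-24878192, plus strand, before the second annotated start): ctgccaggtgTTCCTAGAAgaggccctggg
*Bcl6* (chr16:23988951-23988980, minus strand, before the first annotated start): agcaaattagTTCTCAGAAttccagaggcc
*Bcl6* (chr16:23981432-23981461, minus strand, before the second annotated start, in an intron): aggccgcggcTTCCTGGAAagttacttctc
*Bcl6* (chr16:23981386-23981415, minus strand, same window): ggcaggagtgTTCTGTGAAatccttagagc
*Bcl6* (chr16:23981352-23981381, minus strand, same window): atcgactacgTTCCGGGAAtgagagggctg
*Cish* thus held a pair of matches close together at its start, *Bcl6* held 4 over its 2 windows, and *Igfals* held 1 in each of 2 of its 3 windows. No match was found in the windows of *Ghr*, *Jak2*, *Stat5a*, *Stat5b*, *Cux2* or *Igf1*, which says only that these letters are not in those bases.

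All 10 genes passed the filter on low counts, and 2 of them rose in the livers labelled hep-/-, the feedback inhibitor *Socs2* and the repressor *Cux2*. None fell by edgeR's quasi-likelihood test, while at an unadjusted p under 0.05 there was 1 lower gene, *Ghr*, which DESeq2 also called lower. The 2 calls make 20% of the members, against 15.8% of all genes called in either direction. The share of all genes moved with single mice, to 5.90%, 9.36% and 10.3% without flox/flox replicates 2, 3 and 4, where 2, 3 and 2 members were called, and to 7.76% without replicate 2 labelled hep-/-, where 2 were. For the higher direction alone the background was 8.0%, and for the lower direction 7.83%. The groups did not overlap for 3 members, *Stat5a*, *Socs2* and *Cux2*, or 30%, against 28.6% of all genes. In all 3 the livers labelled hep-/- were higher, as in 13.6% of all genes, with the reverse in 15% of all genes and in no member. Fold changes were above 0 for 8 of the 10 members, with a median log2 fold change of 0.54 beside 0.02 for all genes tested. Leaving out flox/flox replicate 1 or replicate 1 labelled hep-/- left 1 call, *Cux2*. An unadjusted p under 0.05 was reached by 7 members, or 70%, and by 32.9% of all genes. The plot of CPM by mouse shows each value.

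**Figure D1:**
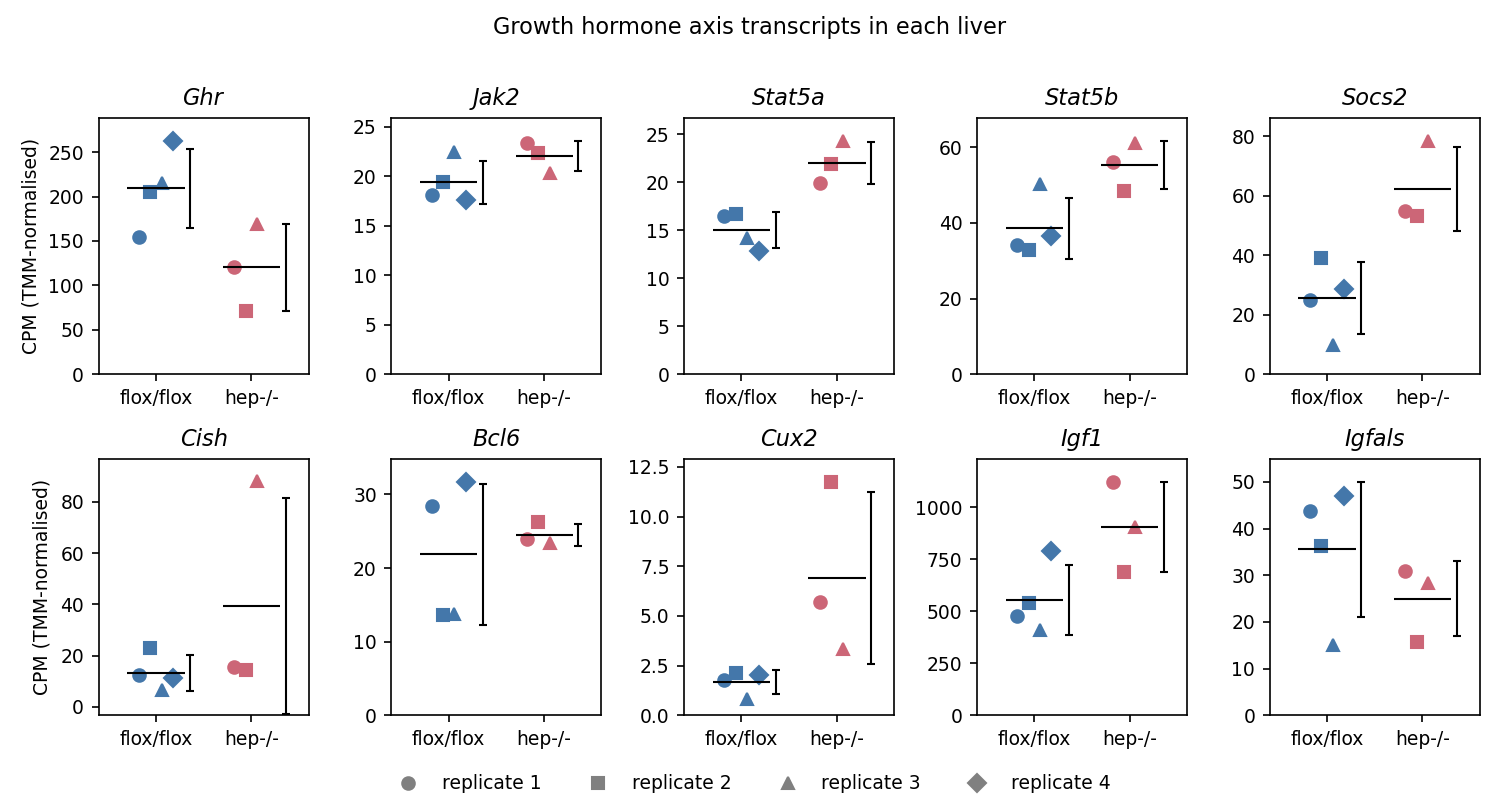
CPM after TMM scaling (y axis, linear, a separate scale for each gene) of the 10 growth hormone axis genes in 4 flox/flox livers (blue) and 3 livers labelled hep-/- (red). Each point is 1 mouse and its shape the replicate number, lines are group means and bars are SD. The groups separate for *Stat5a*, *Socs2* and *Cux2*, and *Cish* stands at 87.95 CPM in a single liver.

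The receptor came first in the chain. *Ghr* (NCBI gene 14600, on chromosome 15), which binds growth hormone and whose shorter transcript encodes the circulating binding protein, was measured at 154.4, 204.7, 215.3 and 262.5 CPM in flox/flox replicates 1 to 4 and at 120.4, 71.54 and 169.2 CPM in replicates 1 to 3 labelled hep-/-. Replicate 2 labelled hep-/- was lowest of all, and replicate 3 lay above flox/flox replicate 1, so the groups overlapped. The log2 fold change was -0.80 (SE 0.29, 95% interval from -1.43 to -0.17), and the adjusted p of 0.0797 was short of the threshold. Without replicate 3 labelled hep-/-, the liver in which *B4galt1* was not low, it was -1.13 and passed (adjusted p = 0.0318), and without replicate 2 labelled hep-/- it was -0.53 (adjusted p = 0.198). DESeq2 also called *Ghr* lower (log2 fold change -0.80, adjusted p = 0.0356). Counts per gene do not distinguish the receptor transcript from that of the binding protein.

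*Jak2* (NCBI gene 16452, on chromosome 19), the tyrosine kinase bound to GHR and to several cytokine receptors, did not pass. It had 18.07, 19.4, 22.44 and 17.57 CPM in flox/flox livers and 23.34, 22.38 and 20.36 CPM in livers labelled hep-/-. These ranges overlapped, and the log2 fold change of 0.19 had a 95% interval from -0.20 to 0.57 (edgeR adjusted p = 0.492).

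Both STAT5 genes, which are neighbours on chromosome 11, were somewhat higher in the livers labelled hep-/-, and neither passed. *Stat5a* (NCBI gene 20850) had 16.51, 16.71, 14.17 and 12.8 CPM in flox/flox livers and 19.93, 21.9 and 24.31 CPM in the others. No flox/flox value reached the lowest value labelled hep-/-. A two-sided exact permutation test of log2 CPM gave p = 0.0286, the smallest that 4 mice against 3 allow. The log2 fold change of 0.55 (SE 0.18) did not pass (edgeR adjusted p = 0.0606). *Stat5b* (NCBI gene 20851), whose product carries most of the growth hormone signal in liver, had 34.26, 32.9, 50.39 and 36.65 CPM in flox/flox livers and 56.23, 48.5 and 61.15 CPM in livers labelled hep-/-. Flox/flox replicate 3 stood above replicate 2 labelled hep-/-, and the log2 fold change was 0.52 (SE 0.20, adjusted p = 0.0909). Leaving out that flox/flox replicate 3 gave 0.68, past the threshold (adjusted p = 0.0450). The pair share sequence, as 15.8% of the 50-base stretches in the longest GENCODE coding transcript of *Stat5a* also occur in *Stat5b*, so their separation depends on how shared reads were counted. Within a mouse the ratio of *Stat5b* to *Stat5a*, each per kilobase, was 1.20, 1.13, 2.05 and 1.65 in flox/flox livers and 1.63, 1.28 and 1.45 in livers labelled hep-/-. This ratio does not depend on the scaling of a library, and it overlapped between the groups, which differed by -0.02 on the log2 scale (exact permutation p = 0.914), a sign that turned without flox/flox replicate 3 (0.142) or 4 (0.038) or replicate 2 labelled hep-/- (0.069).

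The feedback inhibitors, both direct STAT5 targets, varied widely from mouse to mouse. *Socs2* (NCBI gene 216233, on chromosome 10), which marks the growth hormone receptor for degradation, was at 25.04, 39.05, 9.68 and 28.54 CPM in flox/flox replicates 1 to 4 and at 54.96, 53.17 and 78.32 CPM in replicates 1 to 3 labelled hep-/-. All 3 of the latter lay above every flox/flox liver. *Socs2* rose 2.43-fold (log2 fold change 1.28, SE 0.36, edgeR adjusted p = 0.0333), and the exact permutation p was 0.0571. The call was lost without flox/flox replicate 1 or 4 or without replicate 1 or 3 labelled hep-/-, with log2 fold changes from 1.07 to 1.34 and adjusted p-values from 0.0502 to 0.0970.

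*Cish* (NCBI gene 12700, on chromosome 9), which binds the activated receptor and competes with STAT5, is known for the fastest response to a growth hormone pulse. Flox/flox livers had 12.28, 23.14, 6.54 and 11.39 CPM, and livers labelled hep-/- had 15.52, 14.3 and 87.95 CPM. Replicate 3 labelled hep-/- alone was high, by counts of 2674 against 279 to 922 in the other 6 livers, and the other members of that group lay within the flox/flox range. The log2 fold change of 1.56 (SE 0.58, edgeR adjusted p = 0.0885) was 0.15 without that liver (adjusted p = 0.820), and it passed without replicate 2 labelled hep-/- (1.96, adjusted p = 0.0451). The same replicate 3 also had the highest *Socs2*, *Stat5a* and *Stat5b* of all 7 livers, and it is the liver whose *B4galt1* matched the flox/flox level.

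**Figure D2:**
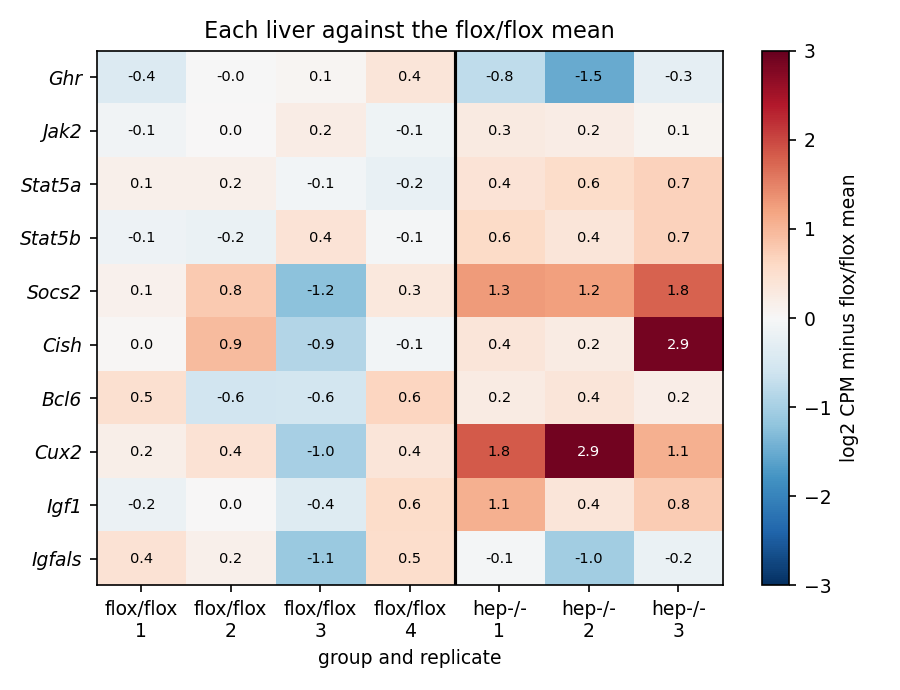
Log2 CPM of each gene (rows) in each liver (columns) minus the mean of the 4 flox/flox livers, with the difference printed in each cell; red is above that mean and blue is below. Flox/flox replicate 3 is the lowest of its group for *Socs2*, *Cish*, *Cux2*, *Igf1* and *Igfals*. In livers labelled hep-/- *Cux2* is highest where *Ghr* is lowest, which does not hold in flox/flox livers.

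Among the repressors, *Cux2* (NCBI gene 13048, on chromosome 5), a homeobox factor that in mouse liver represses male-biased genes, had the largest fold change of the 10 in edgeR with all 7 mice. It was low throughout, with 1.79, 2.13, 0.8 and 2.03 CPM in flox/flox livers, or 34 to 85 counts, and 5.68, 11.73 and 3.32 CPM in livers labelled hep-/-, or 101 to 389 counts. The groups were separate (exact permutation p = 0.0286), and *Cux2* rose 4.09-fold (log2 fold change 2.03, SE 0.45, edgeR adjusted p = 0.0145). Without replicate 2 labelled hep-/-, the highest, the log2 fold change was 1.41 and the adjusted p 0.0631, short of the threshold. In that fit *Cish* had a larger fold change (1.96). In the 3 livers labelled hep-/- the order of *Cux2*, replicate 2 over 1 over 3, was the reverse of the order of *Ghr*. Flox/flox livers did not show this, as *Ghr* was lowest in replicate 1 and *Cux2* highest in replicate 2. An order over 3 livers is weak, and the relation was not tested.

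*Bcl6* (NCBI gene 12053, on chromosome 16), which growth hormone through STAT5 lowers in liver and which B cells also express, did not differ between the groups beyond its spread. Its flox/flox values of 28.4, 13.6, 13.75 and 31.67 CPM split into a high pair and a low pair, while livers labelled hep-/- sat between them at 23.96, 26.24 and 23.39 CPM. The log2 fold change was 0.17 with a 95% interval from -0.48 to 0.82 (edgeR adjusted p = 0.727), and its sign turned when flox/flox replicate 2 or 3 was left out.

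**Figure D3:**
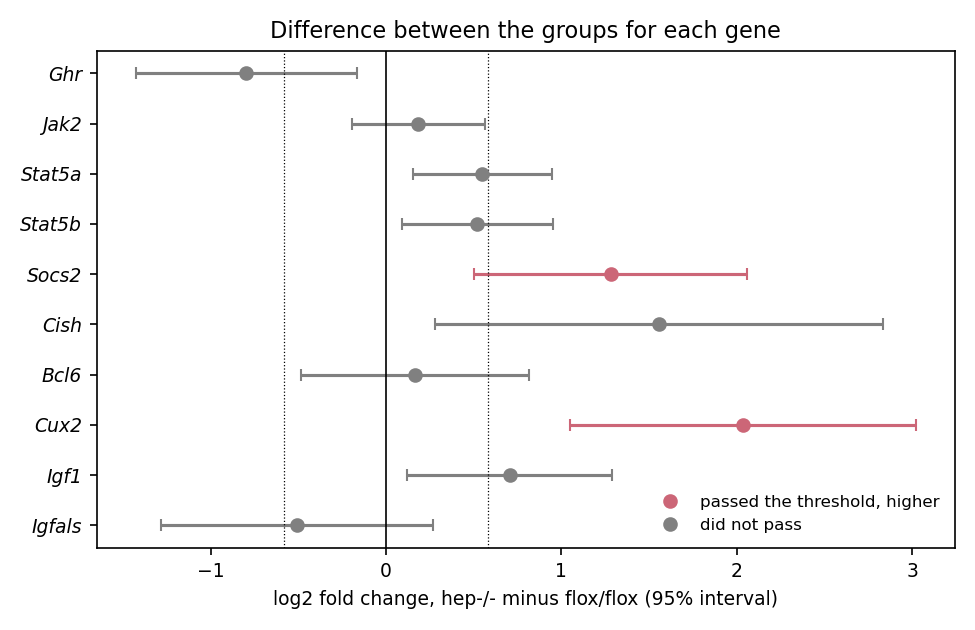
Log2 fold change of livers labelled hep-/- against flox/flox livers (x axis) for each gene, from edgeR, with 95% intervals; dotted lines mark the fold threshold of 0.58 on the log2 scale. *Socs2* at 1.28 and *Cux2* at 2.03 passed (red) and the other 8 genes did not (grey).

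The fold changes of the endocrine products had opposite signs, and neither passed. *Igf1* (NCBI gene 16000, on chromosome 10), the growth factor through which liver answers growth hormone, was at 478.3, 539.5, 407.7 and 790.9 CPM in flox/flox livers and at 1118.1, 686.5 and 905.5 CPM in livers labelled hep-/-. Only flox/flox replicate 4 overlapped the other group, lying above replicate 2 labelled hep-/-. The log2 fold change was 0.71 (SE 0.27, 95% interval from 0.12 to 1.29, edgeR adjusted p = 0.0909), and without flox/flox replicate 4 it was 0.93 with an adjusted p of 0.0448, past the threshold. Under DESeq2 *Igf1* passed too (0.71, adjusted p = 0.0444).

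*Igfals* (NCBI gene 16005, on chromosome 17), whose product holds IGF1 in the circulation, had 43.85, 36.34, 14.95 and 46.93 CPM in flox/flox livers and 30.97, 15.74 and 28.25 CPM in livers labelled hep-/-. Flox/flox replicate 3 was the lowest of all 7, the ranges overlapped, and the log2 fold change was -0.51 with a 95% interval from -1.28 to 0.27 (edgeR adjusted p = 0.344). It was -0.76 (adjusted p = 0.0846) without flox/flox replicate 3 and -0.26 (adjusted p = 0.690) without replicate 2 labelled hep-/-. Set side by side within each liver, *Igf1* per kilobase was 3.03, 4.13, 7.58 and 4.69 times *Igfals* in flox/flox livers and 10.04, 12.12 and 8.91 times in livers labelled hep-/-, without overlap. *Socs2* per kilobase was 0.0560, 0.0659, 0.0155 and 0.0375 of *Ghr* in the former and 0.158, 0.257 and 0.160 in the latter, again without overlap. These 2 ratios were chosen after the values were seen and were given no test. Another length for *Socs2* would change the size of the second ratio in every liver alike, and not the overlap.

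**Figure D4:**
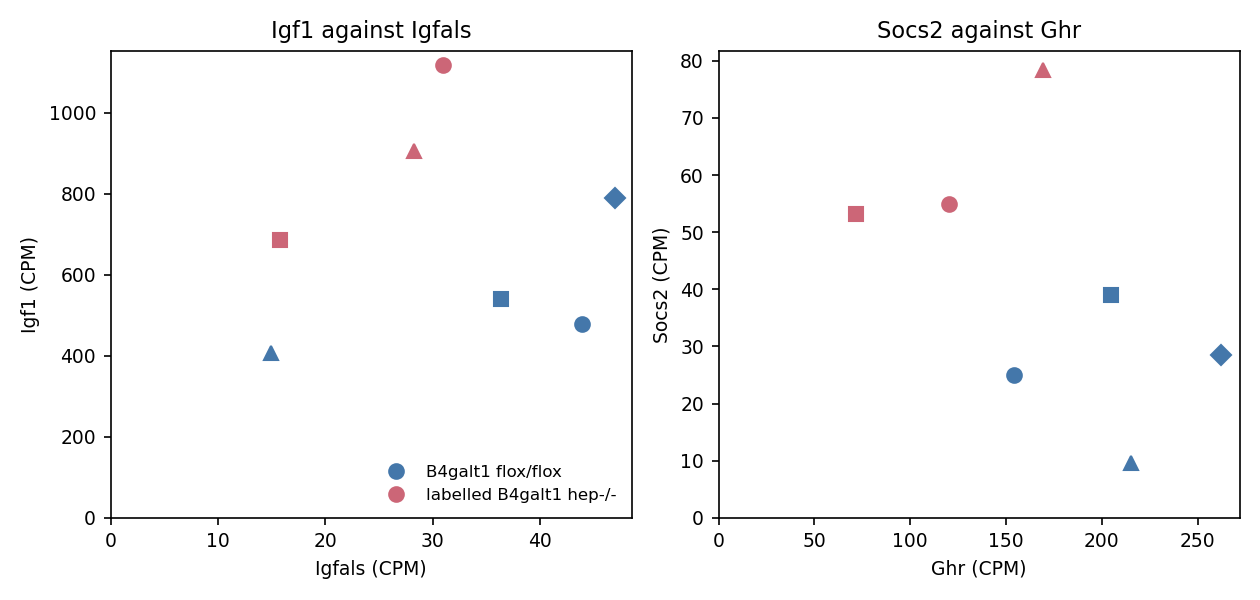
*Igf1* against *Igfals* (left) and *Socs2* against *Ghr* (right), both axes in CPM and linear, with 1 point per liver, flox/flox in blue and labelled hep-/- in red; circle, square, triangle and diamond are replicates 1 to 4. The ratio of y to x is higher at every red point than at every blue point.

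Levels between genes were compared as CPM per kilobase of the gene length implied by the deposited FPKM. In flox/flox livers *Igf1* was highest at 64.5 ± 19.4 (SD, n = 4), followed by *Ghr* at 46.3 ± 9.82, whose range overlapped that of *Igf1*, and by *Igfals* at 14.9 ± 6.04, which lay below both in every liver. The next genes were *Stat5b* at 4.85 ± 1.01, *Bcl6* at 3.68 ± 1.61, *Stat5a* at 3.28 ± 0.413 and *Cish* at 3.11 ± 1.63 CPM per kilobase. Every flox/flox value of *Stat5b* lay above every value of *Stat5a*, while genes next to each other in this order did not differ beyond their spread. *Socs2* at 1.96 ± 0.929 and *Jak2* at 1.77 ± 0.20 could not be ordered either, and *Cux2*, at 0.183 ± 0.0663, was lowest. The implied length of *Socs2*, 13085 bases, enters its value. Its longest GENCODE coding transcript has 2222 bases, and with so short a length *Socs2* would stand higher in this order. In livers labelled hep-/- the order at the top held, with *Igf1* at 105 ± 25.1 (SD, n = 3) and *Ghr* at 26.7 ± 10.8 CPM per kilobase, and here every *Igf1* value lay above every *Ghr* value.

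Spread among the flox/flox mice alone was wide for the feedback inhibitors, *Igfals* and the repressors, and near or below that of the median gene for the receptor, the kinase and the STAT5 genes. The SD of log2 CPM over the 4 mice was 0.87 for *Socs2*, 0.76 for *Igfals*, 0.75 for *Cish*, 0.67 for *Cux2* and 0.66 for *Bcl6*, each larger than in at least 84.2% of all genes tested, whose median was 0.31. It was 0.16 for *Jak2*, 0.19 for *Stat5a*, 0.28 for *Stat5b*, 0.32 for *Ghr* and 0.41 for *Igf1*. Flox/flox replicate 3, the liver high in endothelial and macrophage markers, was the lowest of its group for 5 members, and the part of those cells in its values was not tested. Without it *Socs2*, *Cux2* and *Stat5b* were called. Among livers labelled hep-/- replicate 2 was the lowest for 6 members and replicate 3 the highest for 5.

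Other genes of the pathway mostly did not pass. Of 23 partners and brakes of growth hormone signalling, all tested, 1 rose (4.35%, against 8.0% of all genes), 2 fell (8.70%, against 7.83%) and 20 did not pass, with a median log2 fold change of 0.02. The tyrosine phosphatase *Ptpn2*, which dephosphorylates JAK and STAT proteins, rose, averaging 15.4 ± 1.90 CPM (SD) in the 4 flox/flox livers and 24.9 ± 3.29 CPM in the 3 livers labelled hep-/- (0.69 on the log2 scale, adjusted p = 0.0284). *Stat3*, of interleukin 6 signalling, fell by 0.60 on the log2 scale (adjusted p = 0.0492). Leaving out single mice ended the call of *Ptpn2* in 4 of 7 fits and that of *Stat3* in 6, all but the one without replicate 3 labelled hep-/-. *Ptpn2* lost it without flox/flox replicate 2 or 3 or replicate 1 or 3 labelled hep-/- (0.57 to 0.71). The number that fell was 0 without flox/flox replicate 1 or 2 or replicate 2 labelled hep-/-, and 1 without flox/flox replicate 3 or 4 or replicate 1 labelled hep-/-. The log2 fold changes of the inhibitors *Socs1* (0.90, adjusted p = 0.20) and *Socs3* (0.48, adjusted p = 0.380) did not pass.

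Of 15 tested genes of the IGF system, 1 fell (6.67%, against 7.83% of all genes) and none rose by edgeR. DESeq2 called 2 lower and none higher, as did an unadjusted p under 0.05. *Igf2r*, the receptor that clears IGF2, had 60.98, 59.83, 63.35 and 53.15 CPM in flox/flox livers and 37.6, 33.03 and 36.48 CPM in livers labelled hep-/-. It fell (log2 fold change -0.73, adjusted p = 0.0164) and lost the call without flox/flox replicate 2 (adjusted p = 0.0557), which left none that fell, while without flox/flox replicate 4 there were 2. The binding protein genes did not pass, with log2 fold changes of 0.42 for *Igfbp1*, 0.13 for *Igfbp2*, 0.46 for *Igfbp3* and -0.47 for *Igfbp4*.

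Among 14 liver regulators known to respond to growth hormone or to act with it, 2 rose (14.3%, against 8.0% of all genes) and 1 fell (7.14%, against 7.83%). *Cebpb*, of the acute-phase response, rose (0.94, adjusted p = 0.0184) and lost the call without flox/flox replicate 2 (0.86) or replicate 1 labelled hep-/- (0.77). Without flox/flox replicate 2 the count that rose was 1. *Egfr*, whose expression in liver depends on growth hormone, fell (log2 fold change -0.96, adjusted p = 0.0383), from a flox/flox range of 156 to 351.9 CPM to 109.9 to 153.2 CPM, and kept the call in a single leave-one-out fit, that without flox/flox replicate 3.

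Livers that lack GHR, JAK2 or STAT5 are known to raise a set of lipid genes. Of 12 such genes, 1 rose (8.33%, against 8.0% of all genes) and 3 fell (25%, against 7.83%, and 1 gene without flox/flox replicate 2), with a median log2 fold change of -0.19. The fatty acid transporter *Cd36* (-1.32, adjusted p = 0.0112), the lipid droplet coat gene *Plin2* (-1.06, adjusted p = 0.0210) and the adipogenic nuclear receptor *Pparg* (-0.92, adjusted p = 0.0311) fell. *Plin4*, another droplet coat gene, rose (0.92, adjusted p = 0.0303). *Cd36* kept its call whichever mouse was left out. *Plin2* lost it without flox/flox replicate 2 (-0.97) or replicate 1 labelled hep-/- (-1.07), *Pparg* without flox/flox replicate 2 or 4 or replicate 2 or 3 labelled hep-/- (-0.99 to -0.75), and *Plin4* without flox/flox replicate 2 or 3 or replicate 2 or 3 labelled hep-/- (0.70 to 0.88).

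Sex-biased genes, whose difference between male and female liver follows the growth hormone pulse pattern, came next. Of 30 male-biased genes listed, 27 were tested. Of these, 13 fell (48.1%, against 7.83% of all genes) and none rose by edgeR, by DESeq2 or at an unadjusted p under 0.05. All 27 had log2 fold changes below 0, with a median of -1.46. The organic anion transporter *Slco1a1* was at 6.71, 0.778, 5.25 and 8.59 CPM in flox/flox livers and at 0.162, 0.0302 and 1.18 CPM in livers labelled hep-/-, where replicate 3 overlapped flox/flox replicate 2 (log2 fold change -3.54, edgeR adjusted p = 0.0302). The major urinary protein genes *Mup7* (-3.34, adjusted p = 0.00976) and *Mup1* (-3.13, adjusted p = 0.00908) and the glucuronosyltransferase *Ugt2b38* (-3.40, adjusted p = 0.0293) followed, all at low levels and with near-identical copies among which the authors' counting could split reads. *Slco1a1* lost its call in 4 leave-one-out fits, those without flox/flox replicate 3 or 4 or replicate 1 or 2 labelled hep-/- (-3.55 to -2.98), and its log2 fold change was -5.78 without replicate 3 labelled hep-/-. *Ugt2b38* lost its call in 3, those without flox/flox replicate 2 or 4 or replicate 1 labelled hep-/- (-3.30 to -2.94), and was at -6.52 without replicate 3 labelled hep-/-. The abundant *Mup20* (1953 CPM in flox/flox livers and 1428 CPM in livers labelled hep-/-, -0.45, adjusted p = 0.401) and *Mup3* (541 and 528 CPM, -0.04, adjusted p = 0.950) did not pass. At higher level, the steroid hydroxylase gene *Cyp2d9*, added like *Mup20* and *Mup3* outside the naming rule after its values were seen, was at 357.7, 123.4, 207.9 and 246.5 CPM in flox/flox livers and at 33.57, 29.68 and 51.15 CPM in livers labelled hep-/- (-2.62, adjusted p = 0.00283). Without flox/flox replicate 4 the count of male-biased genes that fell was 8.

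Of 34 female-biased genes listed, 23 were tested, and *Sult3a1* was at 0 counts in every liver. Of the 23, 8 rose (34.8%, against 8.0% of all genes) and none fell by edgeR, although DESeq2 called 2 lower and 2 were lower at an unadjusted p under 0.05. Their log2 fold changes were above 0 for 18 and below 0 for 5, with a median of 0.70. The hydroxysteroid sulfotransferase *Sult2a1* was at 0.161, 0.803, 0.398 and 0.0283 CPM in flox/flox livers and at 17.0, 12.6 and 33.9 CPM in livers labelled hep-/-, below the level of 3 counts (0.0847 CPM) in flox/flox replicate 4 (log2 fold change 5.90, SE 0.63, edgeR adjusted p = 0.00141). The cytochrome P450 gene *Cyp2b13* (4.70, adjusted p = 0.000654), *Sult2a2* (4.40, adjusted p = 0.00732) and *Cyp2a4* (3.01, adjusted p = 0.00236) rose as well, and all 4 kept their calls whichever mouse was left out. They too belong to families of near copies. The abundant *Cyp4a10* (2016 CPM in flox/flox livers and 2324 CPM in livers labelled hep-/-, 0.205, adjusted p = 0.542) did not pass. Without flox/flox replicate 1, replicate 1 labelled hep-/- or replicate 3 labelled hep-/- the count of female-biased genes that fell was 2, 3 and 1.

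**Figure D5:**
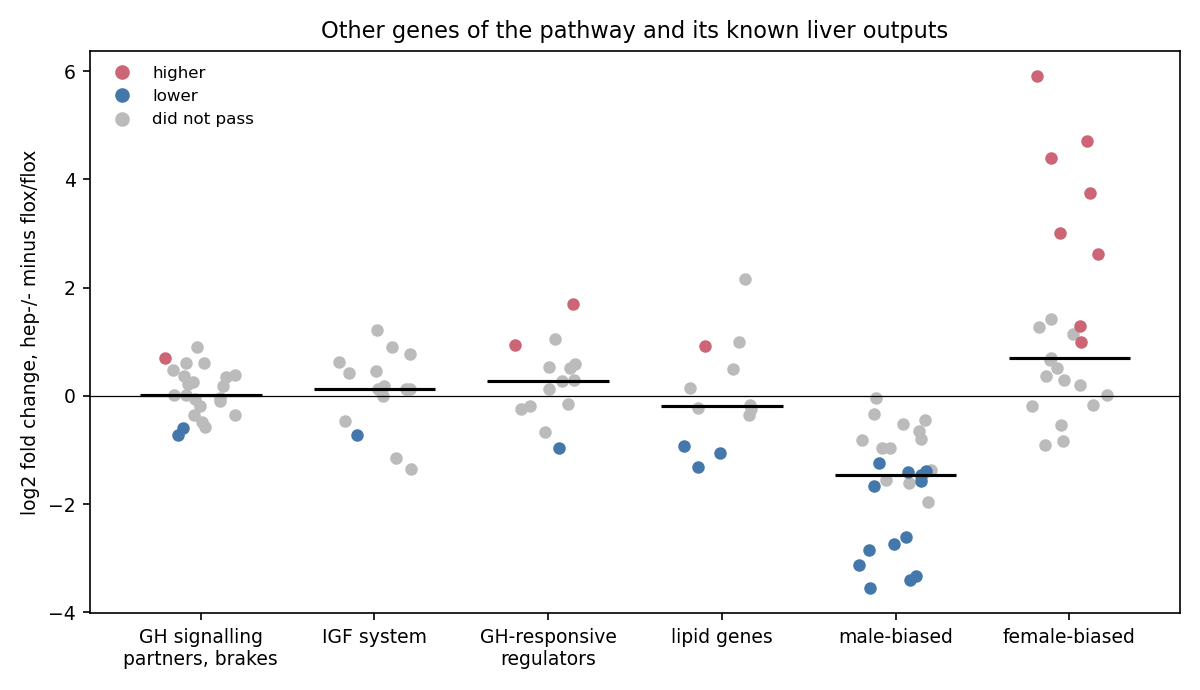
Log2 fold change of livers labelled hep-/- against flox/flox livers (y axis) for every tested gene of 6 lists (x axis); each point is 1 gene, coloured where it passed the threshold, and lines are list medians. The male-biased genes lie below 0, down to -3.54, and the female-biased genes reach 5.90, while the other lists are centred between -0.19 and 0.28.

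Markers of other liver cells were read because several of these genes are expressed outside hepatocytes, *Igf1* in macrophages and *Bcl6* in B cells among them. Of 17 markers of Kupffer cells and macrophages, 8 fell (47.1%, against 7.83% of all genes) and none rose by edgeR, by DESeq2 or at an unadjusted p under 0.05. The number that fell was 5 without flox/flox replicate 2, flox/flox replicate 3 or replicate 3 labelled hep-/-, an alternative chosen after seeing the data. Their summed level was 1590 to 3123 CPM in flox/flox livers and 1088 to 1574 CPM in livers labelled hep-/-. None was at 0. Their part in the values of *Igf1*, *Stat5a* and *Bcl6*, or of the lipid genes *Cd36*, *Plin2* and *Pparg*, was not tested. The 13 hepatocyte markers in the table summed to 98710 to 141500 CPM and 106800 to 171400 CPM, and none was called by edgeR, while 2 were higher and 2 lower at an unadjusted p under 0.05 and DESeq2 called 1 higher and 2 lower. No B cell marker was called by edgeR (1 of 6 was higher at an unadjusted p under 0.05, and 1 by DESeq2), with summed levels of 23.3 to 36 and 23.1 to 59.8 CPM. Of the remaining marker lists, 1 of 10 stellate cell genes (*Lum*, 10%) and 1 of 8 endothelial genes (*Kdr*, 12.5%) fell, and of 5 erythroid genes *Hba-a1* rose and *Alas2* fell (20% each), against 7.83% of all genes lower and 8.0% higher. None of 8 cholangiocyte, 7 T and NK cell and 5 neutrophil markers was called by edgeR or DESeq2, and at an unadjusted p under 0.05 there was 1, a neutrophil marker that was higher.

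The genes whose pattern over the 7 mice was nearest to that of *Ghr*, by the root mean square difference of centred log2 CPM among 8384 genes of at least 10 CPM, were *Bche* at 0.05, *Ndufa4* at 0.10 and *Sdhd* at 0.11, where the median gene was at 0.57. Nearest to *Igf1* were *Zfp944* at 0.12 and *Gamt* and *Serpina1a* at 0.13, with a median of 0.59.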

How the data were processed

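Liver RNA of 7 mice was extracted with TRIzol and made into libraries with a VAHTS Universal kit. The authors deposited raw counts per gene, whole numbers without normalization, and FPKM values, which equalled the count divided by a fixed gene length and the library total within 1 percent for all 13374 genes that reached 10 counts in each mouse. The submitters' processing notes name fastp, HISAT2, HTSeq, DESeq2, R 3.2.0 and GRCm39 without roles, and the annotation is not given in the sources used here. The paper's supplement gives DESeq2 for differential expression and R 3.2.0 for Gene Ontology enrichment. Columns of gene descriptions were not used.

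Low counts were filtered with filterByExpr of edgeR 4.0.16 (R 4.3.3; a count of 10 and a total of 15), which left 15179 genes. Libraries were scaled by TMM, and groups were compared by the quasi-likelihood method in edgeR, with p-values adjusted over all genes tested (Benjamini-Hochberg). Standard errors came from the F statistic. As in the study, a call needed a log2 fold change beyond 0.58 in either direction and an adjusted p below 0.05. Single values were compared by a two-sided exact permutation test over 35 splits. Libraries held 30608271 to 39668509 counts, so 3 counts are 0.0690 to 0.0986 CPM after TMM scaling. Intervals are for the difference between groups, with a spread between mice that edgeR estimates partly from other genes. Replicate numbers name mice and were not used as pairs in the main test. The members, the gene lists and the tests were chosen with earlier results of these data known, and the hand-written lists are not independent evidence. The text names all 10 members, *B4galt1*, up to 4 called genes per list and direction with a mean of at least 1 CPM, and 3 genes nearest to *Ghr* and to *Igf1*. Some genes that this rule names are not reported here. *Socs1*, *Socs3*, 4 IGF binding protein genes, *Cyp2d9*, *Mup3*, *Mup20*, *Cyp4a10* and marker genes were named besides, after their values were seen. Results were recomputed with upper-quartile or RLE scaling, DESeq2 1.42.0, 2 filters, no mitochondrially encoded genes, limma 3.58.1 after voom and on FPKM (log2, pseudocounts 1 and 0.1), a replicate block, no fold threshold and each mouse left out. The code was tested on simulated data. Sequences are RefSeq's (GRCm38.p6), matched by NCBI gene identifier. Other coordinates are not given, since the builds differ.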

Additional observations from a re-analysis of the deposited data

How the results depend on the processing

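The 10 genes gave 2 calls, and between 1 and 3 when single mice were left out. It stayed at 2, *Socs2* and *Cux2*, with RLE scaling, with at least 10 counts in every mouse and without mitochondrially encoded genes. The count was 4 with DESeq2 and with a filter of at least 1 count in any mouse, 5 with voom and sample weights, and 0 with limma on log2(FPKM + 1) over all genes above 0. *Ghr* passed with DESeq2 (-0.80), the filter of 1 count (-0.81), limma on log2(FPKM + 1) (-0.95) and log2(FPKM + 0.1) (-0.98) and voom (-0.75). *Igf1* passed with DESeq2 (0.71), limma on log2(FPKM + 1) (0.59) and log2(FPKM + 0.1) (0.60) and voom (0.81). *Stat5a* passed with upper-quartile scaling (0.58), *Stat5b* with voom (0.67) and *Cish* with the filter of 1 count (1.55). The targeted gene *B4galt1* passed, as lower, with limma on log2(FPKM + 1) (-0.665) and log2(FPKM + 0.1) (-0.729). With limma on log2(FPKM + 1) over all genes above 0, *Socs2* (0.92) and *Cux2* (0.51) did not pass. The cause of these changes was not tested.

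With single mice left out, log2 fold changes ranged from -1.13 to -0.53 for *Ghr*, 0.43 to 0.68 for *Stat5b*, 1.01 to 1.55 for *Socs2*, 0.15 to 1.96 for *Cish*, -0.01 to 0.40 for *Bcl6*, 1.41 to 2.36 for *Cux2* and 0.51 to 0.93 for *Igf1*, and the log2 ratio of *Stat5b* to *Stat5a* from -0.14 to 0.14. The sign turned for *Bcl6* without flox/flox replicate 2 (-0.009) or 3 (-0.003) and for the ratio without flox/flox replicate 3 (0.142) or 4 (0.038) or replicate 2 labelled hep-/- (0.069). *Jak2* and *Igfals* kept direction and side of the threshold throughout, from 0.04 to 0.26 and from -0.76 to -0.26. All genes called numbered 2404, 885 to 2396 with single mice left out (885, 1405 and 1552 without flox/flox replicates 2, 3 and 4 and 1199 without replicate 2 labelled hep-/-) and 1330 with limma over all genes above 0. Of calls, 24.5% were higher with limma on log2(FPKM + 1), where the median log2 fold change shifted by -0.12, against 50.5% with TMM. Male-biased genes that fell numbered 8 to 18 and female-biased genes that rose 3 to 10 over all alternatives.

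Mice with the same replicate number did not vary together. The correlations of their deviations over genes were -0.58, -0.25 and 0.13, and they are different animals. With the replicate number as a block, 1267 genes were called, and the members called were again 2, *Socs2* and *Cux2*. With adjusted p alone 2427 genes were called. Genes at a few counts, such as *Slco1a1* and *Sult2a1*, have fold changes that depth limits.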
